A study of Homo sapiens with 9 samples.

Results

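The genes described here are 45 members of the extracellular matrix and collagen processing set, chosen by name from among the 58381 gene entries with an Ensembl identifier. The members were chosen with earlier results of these data known, so their shares of calls describe the set and are no independent test. These genes were followed in HK1, an established line of nasopharyngeal carcinoma cells of human origin. All cells were transfected with an siRNA at 100 nM and harvested 48 h later. Of the 9 libraries, 3 came from cells given a control siRNA with no target, 3 from cells given siRNA to E2F1 and 3 from cells given siRNA to E2F3. The 3 libraries of a group are called replicates 1 to 3. The labels do not say whether they came from separate cultures, so the p-values measure the spread between these libraries, which may be technical. One line was used, and the labels name no second siRNA against either gene.

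The extracellular matrix is the network of secreted proteins around cells. Its collagens are hydroxylated and folded in the endoplasmic reticulum, secreted, trimmed and then cross-linked outside the cell. Epithelial and carcinoma cells mainly add to the basement membrane, a sheet built from type IV collagen, laminins and heparan sulfate proteoglycans, whereas fibrillar type I and type III collagens are mostly made by fibroblasts. E2F1 and E2F3 are transcription factors bound by the retinoblastoma protein and best known for the genes of cell cycle entry.

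Levels are FPKM, the fragments mapped to a gene relative to its length and to the size of the library, which are scaled by gene length and so can be set side by side between genes. Differences between groups were taken after log2(FPKM + 1), so changes of genes with low values are understated. They come from a single limma model of the 13777 genes that reached 1 FPKM in 3 or more libraries. A gene was called when its Benjamini-Hochberg adjusted p over all these genes was under 0.05, and errors are SDs over 3 libraries for levels and standard errors (SE) for log2 differences. Of the 45 members, 38 passed the filter and were tested and 7 were not. Averaged over the 9 libraries, 33 members stood at 5 FPKM or more and 7 under 1 FPKM.

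The siRNA targets moved as the labels state. E2F1 stood at 19.53 to 20.2 FPKM in the control libraries and 7.17 to 7.95 after E2F1 siRNA (log2 -1.30, SE 0.06), and E2F3 at 24.42 to 27.17 in control and 10.52 to 12.61 after E2F3 siRNA (log2 -1.10, SE 0.07). Total depth is unknown. Relative to control replicate 1, the depth read from the steps of low FPKM values ranged from 0.847 to 1.203 in control, from 0.888 to 1.129 with E2F1 siRNA and from 0.967 to 0.986 with E2F3 siRNA. All 12 epithelial markers were detected, and their summed level was 3044 to 3091 FPKM in control, 2132 to 2240 after E2F1 siRNA and 2129 to 2238 after E2F3 siRNA. Of 12 fibroblast and mesenchymal markers, 8 were under 1 FPKM in every library and TCF21 and DPT were at 0 throughout. Their sum, mostly VIM, was 359 to 377 FPKM in control, 328 to 336 after E2F1 siRNA and 428 to 448 after E2F3 siRNA. Endothelial markers summed to 0.64 to 2.05 FPKM, and 5 of 6 leukocyte markers were under 1 FPKM in every library. The epithelial and mesenchymal sums moved with the groups, but not every marker followed its sum. Of the 12 epithelial markers, 9 were called lower and 0 higher after E2F1 siRNA, and 8 lower and 1 higher (DSP) after E2F3 siRNA. Over all genes 17.3% were lower and 20.5% higher, and 16.4% and 21.1%. After E2F1 siRNA ACTA2 (log2 -0.95, adjusted p = 1.65e-04) and S100A4 (log2 -0.37, adjusted p = 0.0248) fell, and VIM was not called (log2 -0.09, adjusted p = 0.0611). After E2F3 siRNA VIM rose (log2 0.33, adjusted p = 6.98e-05), S100A4 fell (log2 -0.86, adjusted p = 2.22e-04) and ACTA2 was not called. The part of these markers in the results on matrix genes was not tested.

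After E2F1 siRNA most of the matrix genes were lower. Of the 38 members tested, 26 fell, 1 rose and 11 did not pass the test. Among all 13777 genes, 17.3% were called lower and 20.5% higher. The median log2 difference was -0.28 over the members and 0.03 over all genes tested. The summed level of all 45 members went from 1874 ± 39.9 FPKM in control to 1488 ± 26.6 after E2F1 siRNA (SD, n = 3), and the 3 E2F1 siRNA libraries (1465 to 1517) all lay below the 3 control libraries (1841 to 1918). In such bulk samples fewer cells that make a transcript and less of it per cell cannot be told apart. Falls were found in fibronectin (FN1), the type IV collagen gene COL4A1, the cross-linking enzymes LOX and LOXL2 and agrin (AGRN), and the single rise was in COL1A1. All 6 hydroxylases and cross-linking enzymes fell, as did all 6 laminin and basement membrane proteoglycan genes that were tested.

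**Figure D1:**
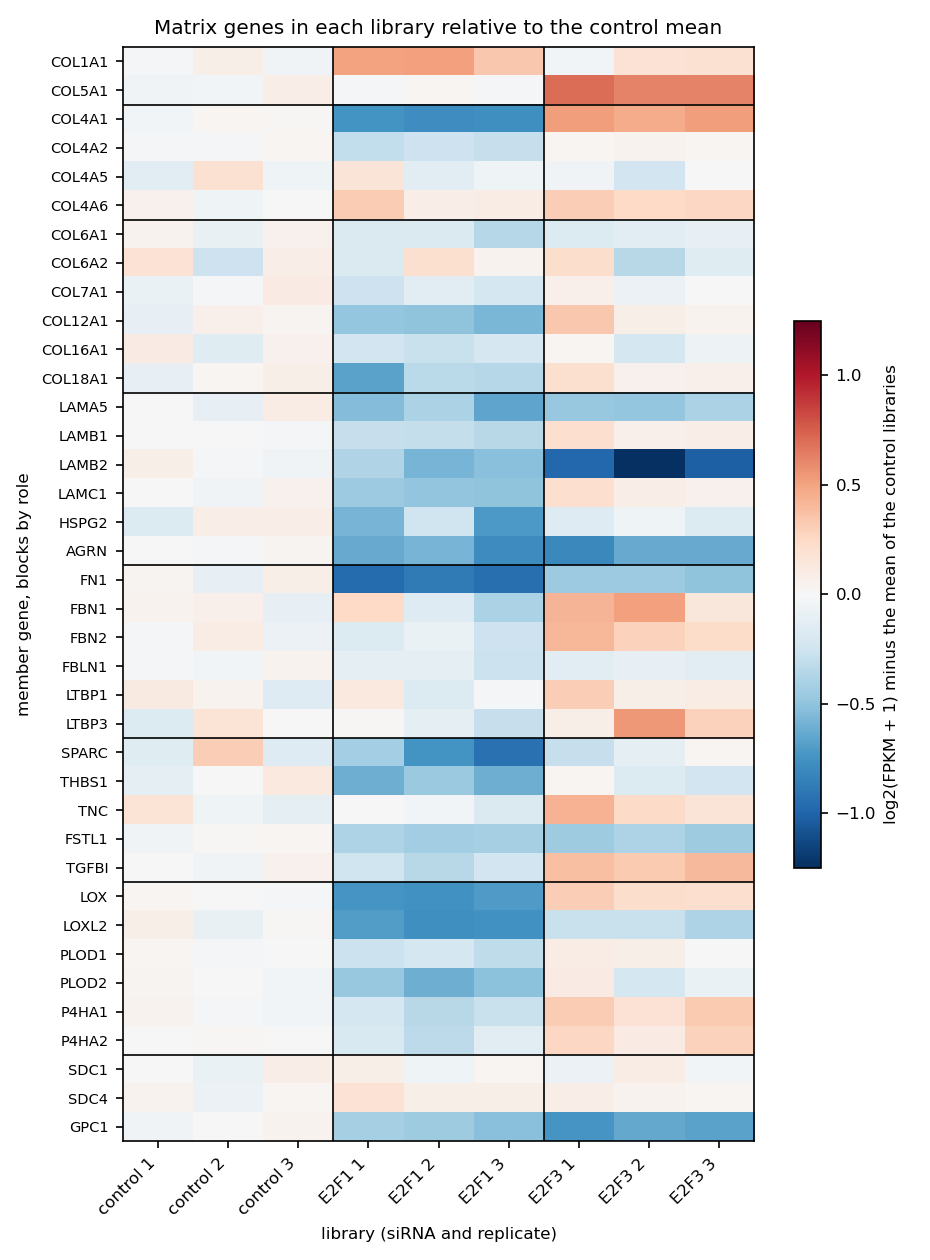
Each tested matrix gene (rows, in blocks by role) in each of the 9 libraries (columns), as log2(FPKM + 1) minus the mean of the 3 control libraries. Blue cells fill most rows of the 3 E2F1 siRNA columns, whereas the E2F3 siRNA columns hold both red rows (COL5A1, COL4A1, TGFBI) and blue rows (LAMB2, GPC1, AGRN).

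After E2F3 siRNA the same set moved in both directions. Of the 38 members tested, 8 rose (COL5A1, COL4A1, COL4A6, FBN2, TGFBI, LOX, P4HA1 and P4HA2), 7 fell (LAMA5, LAMB2, AGRN, FN1, FSTL1, LOXL2 and GPC1) and 23 did not pass. All genes gave 21.1% higher and 16.4% lower, so the members' 21.1% and 18.4% were near the background. The median log2 difference was 0.04 both over the members and over all genes. The summed level was 1918 ± 37.3 FPKM (SD, n = 3; 1885 to 1958), which overlapped the control range. Both comparisons use the same 3 control libraries, so they are not independent of each other.

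The libraries of both knockdowns were also compared directly. The log2 differences of this comparison do not use the control. Its filter, SEs and p-values do, as they come from the fit of all 9 libraries. Of the 38 members, 23 were higher after E2F3 siRNA than after E2F1 siRNA, 3 were lower (COL1A1, LAMB2 and GPC1) and 12 did not pass. Over all genes 23.5% were higher and 22.0% lower, with a median of 0.02 against 0.37 for the members. All 6 hydroxylases and cross-linkers were higher, and 4 of the 5 matricellular genes.

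**Figure D2:**
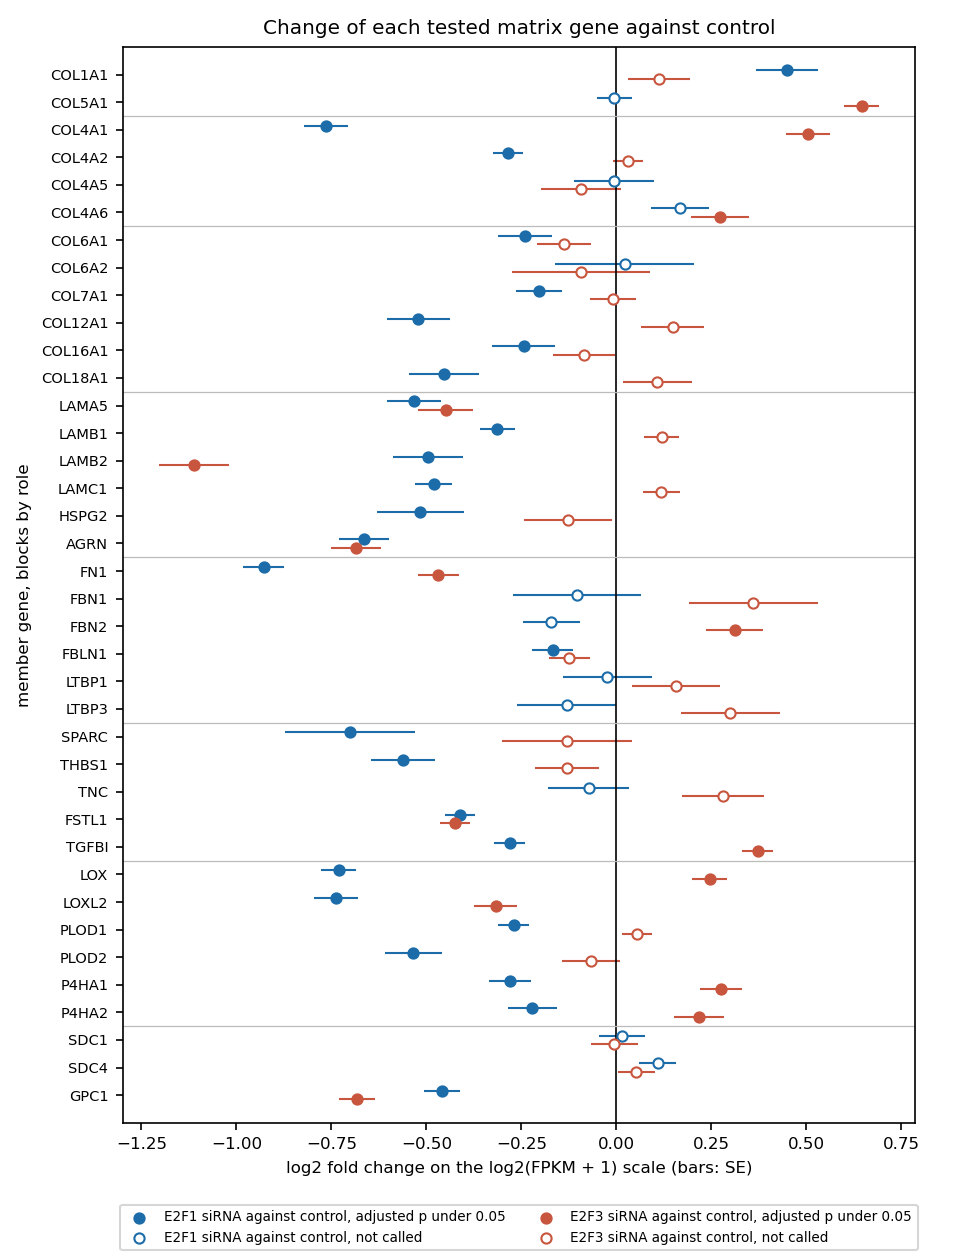
The log2 difference from control (x axis, log2(FPKM + 1) scale, bars are SE) of the 38 tested members (y axis, blocks by role) after E2F1 siRNA (blue) and E2F3 siRNA (red), filled where the limma adjusted p was under 0.05. Most filled blue points lie left of 0 down to FN1 at -0.93, and the filled red points lie on both sides, from LAMB2 at -1.11 to COL5A1 at 0.65.

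Among the fibrillar collagens, COL5A1 was by far the most abundant at 92.7 ± 4.89 FPKM in control, followed by COL1A1 at 12.8 ± 0.643 FPKM (SD, n = 3). COL5A1 encodes a chain of type V collagen, which controls the width of collagen fibrils. It stood at 89.62, 90.1 and 98.32 FPKM in control, 91.6, 94.11 and 91.06 after E2F1 siRNA and 150.94, 142.82 and 142.66 with E2F3 siRNA. The E2F1 siRNA values lay inside the control range, and the E2F3 siRNA values lay above all others. The log2 difference from control was -0.01 (SE 0.05, adjusted p = 0.938) after E2F1 siRNA and 0.65 (SE 0.05, adjusted p = 5.63e-06) after E2F3 siRNA. COL1A1, the main chain of type I collagen, behaved otherwise. Its values were 12.54, 13.54 and 12.34 FPKM in control, 18.51, 18.73 and 16.4 after E2F1 siRNA and 12.44, 14.68 and 14.77 with E2F3 siRNA. Only the E2F1 siRNA libraries of COL1A1 lay clear of control (log2 0.45, SE 0.08, adjusted p = 0.00179), and the difference after E2F3 siRNA was 0.11 (adjusted p = 0.305). Taken directly, COL1A1 was lower after E2F3 than after E2F1 siRNA (log2 -0.34, adjusted p = 0.00747).

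The partner chains of these collagens were close to 0 and were not tested. COL1A2 was at 0.06 to 0.31 FPKM over the 9 libraries and COL5A2 at 0.14 to 0.49 FPKM. COL3A1, the chain of type III collagen, stood at 0.67, 0.62 and 0.43 FPKM in control, 0.33 to 0.47 after E2F1 siRNA and 1.18, 0.85 and 0.97 with E2F3 siRNA. All its E2F3 siRNA values were above control, at levels too low for the test. This was not particular to COL3A1. COL5A2 was at 0.14 to 0.18 FPKM in control, 0.29 to 0.47 after E2F1 siRNA and 0.43 to 0.49 after E2F3 siRNA. LAMA4 was also above control after E2F3 siRNA and BGN after E2F1 siRNA, while NID1 was below it after E2F3 siRNA. The share of such low genes without overlap was not taken over all genes.

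Of the type IV collagens, which form the sheet of the basement membrane, COL4A1 and COL4A2 encode the chains found in nearly every basement membrane. The genes lie head to head on chromosome 13 (COL4A1, ENSG00000187498.14, chr13:110148963-110307233, minus strand, and COL4A2, ENSG00000134871.17, chr13:110305812-110513209, plus strand, GENCODE 29 on GRCh38). Their RefSeq start sites (GRCh38.p14) are 127 bases apart, so that 226 of the 300 bases of each gene's promoter window are shared. The window of COL4A2 at chr13:110307034-110307333, plus strand, is shown because both genes start in it, with the bases from one start site to the other in capitals.
COL4A2 window: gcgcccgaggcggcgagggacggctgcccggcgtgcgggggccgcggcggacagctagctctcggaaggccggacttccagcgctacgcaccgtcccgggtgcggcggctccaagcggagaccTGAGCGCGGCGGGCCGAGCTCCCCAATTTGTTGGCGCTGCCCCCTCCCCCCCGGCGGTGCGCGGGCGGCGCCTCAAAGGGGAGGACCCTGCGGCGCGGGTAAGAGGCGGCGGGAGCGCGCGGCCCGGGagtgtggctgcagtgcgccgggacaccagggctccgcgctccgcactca
GC content of that window was 77.7%. COL4A5 and COL4A6 form a second head-to-head pair on the X chromosome, with RefSeq start sites 380 bases apart, and the window of COL4A5 at chrX:108439588-108439887, plus strand, is shown for comparison, with the 251 bases that lie between both start sites in capitals.
COL4A5 window: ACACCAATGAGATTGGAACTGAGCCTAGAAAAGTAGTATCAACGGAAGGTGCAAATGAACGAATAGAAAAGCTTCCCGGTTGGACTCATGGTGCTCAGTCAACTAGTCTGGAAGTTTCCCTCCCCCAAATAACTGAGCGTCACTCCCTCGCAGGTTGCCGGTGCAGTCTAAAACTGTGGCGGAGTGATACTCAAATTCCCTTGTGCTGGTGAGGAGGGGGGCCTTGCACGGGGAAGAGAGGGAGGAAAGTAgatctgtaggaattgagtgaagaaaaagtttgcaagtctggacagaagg
GC content was 49.3% there.

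COL4A1 stood at 9.56, 10.01 and 9.9 FPKM in control, 5.45, 5.33 and 5.35 after E2F1 siRNA and 14.55, 13.93 and 14.56 with E2F3 siRNA. Its 3 groups were fully apart, with the E2F1 siRNA libraries lowest and the E2F3 siRNA libraries highest. The log2 difference from control was -0.76 (SE 0.06, adjusted p = 7.42e-06) after E2F1 siRNA and 0.50 (SE 0.06, adjusted p = 1.19e-04) after E2F3 siRNA, and the direct difference of 1.27 (SE 0.06, adjusted p = 2.38e-07) was the largest among the members. COL4A2 had 36.6, 36.55 and 37.66 FPKM in control, 29.67, 30.73 and 29.98 after E2F1 siRNA and 37.49, 38.15 and 37.63 with E2F3 siRNA. It was lower in every E2F1 siRNA library (log2 -0.29, SE 0.04, adjusted p = 4.07e-04), and its E2F3 siRNA values overlapped control (log2 0.03, SE 0.04, adjusted p = 0.582). The ratio of COL4A2 to COL4A1 in FPKM was 3.65 to 3.83 in control, 5.44 to 5.77 after E2F1 siRNA and 2.58 to 2.74 after E2F3 siRNA. These groups did not overlap. An exact permutation test between each pair of groups gave p = 0.1, the lowest it can reach with 3 libraries against 3 (0.183 after adjustment over all ratio comparisons).

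The X-linked pair differed less between groups. COL4A5 stood at 21.04, 26.51 and 22.23 FPKM in control, 26.04, 21.02 and 22.32 after E2F1 siRNA and 22.42, 19.47 and 23.2 with E2F3 siRNA. Its groups overlapped and it was not called in any comparison. COL4A6 had 9.2, 8.47 and 8.82 FPKM in control, 11.28, 9.41 and 9.5 after E2F1 siRNA and 11.19, 10.71 and 10.73 with E2F3 siRNA. Values after both siRNAs lay above control, with a call after E2F3 siRNA (log2 0.27, SE 0.08, adjusted p = 0.0192) and none after E2F1 siRNA (log2 0.17, adjusted p = 0.117). The call was lost without control replicate 2, control replicate 3 or E2F3 siRNA replicate 1 (adjusted p = 0.0608, 0.0506 and 0.0581). The ratio of COL4A5 to COL4A6 was 2.29 to 3.13 in control and 1.82 to 2.16 after E2F3 siRNA.

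Of the 6 other collagens, 5 fell after E2F1 siRNA and 0 were called after E2F3 siRNA. COL12A1, a collagen that decorates fibrils, stood at 20.76, 23.44 and 22.92 FPKM in control, 15.71, 15.42 and 14.7 after E2F1 siRNA and 28.44, 23.48 and 23.02 with E2F3 siRNA. The E2F1 siRNA libraries were below all others (log2 -0.52, SE 0.08, adjusted p = 8.53e-04), and those after E2F3 siRNA reached into the control range (log2 0.15, adjusted p = 0.19). COL18A1, a basement membrane collagen whose cleaved end is endostatin, had 24.5, 26.78 and 27.74 FPKM in control, 16.22, 20.61 and 20.29 after E2F1 siRNA and 30.46, 27.37 and 27.57 with E2F3 siRNA. Again only the E2F1 siRNA libraries were clear of control (log2 -0.45, SE 0.09, adjusted p = 0.00338). On the opposite strand SLC19A1 shares 16.4% of the exon bases of COL18A1, and the counting is not stated to use strand.

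COL7A1, which builds the fibrils that anchor the epidermis, stood at 39.65, 41.34 and 45.11 FPKM in control, 34.89, 38.19 and 35.99 after E2F1 siRNA and 43.81, 39.74 and 41.72 with E2F3 siRNA. COL16A1, another fibril-associated collagen, had 25.36, 21.04 and 24.37 FPKM in control, 19.74, 19.16 and 20.22 after E2F1 siRNA and 23.95, 20.06 and 22.54 with E2F3 siRNA. COL6A1, a chain of the beaded filaments of type VI collagen, stood at 13.61, 12.34 and 13.73 FPKM in control, 11.52, 11.55 and 10.1 after E2F1 siRNA and 11.64, 11.92 and 12.21 with E2F3 siRNA. In all of these the E2F1 siRNA libraries lay below control by little more than the spread of the replicates: log2 -0.20 for COL7A1 (adjusted p = 0.0261), -0.24 for COL16A1 (adjusted p = 0.04) and -0.24 for COL6A1 (adjusted p = 0.0233). Each of these calls was lost when certain single libraries were left out. For COL7A1 these were control replicates 2 and 3 and E2F1 siRNA replicates 1 and 3 (adjusted p = 0.0505, 0.0952, 0.0887 and 0.0684). For COL6A1 these were control replicates 1 and 3 and E2F1 siRNA replicate 3 (adjusted p = 0.0761, 0.0778 and 0.0824). The COL16A1 call was lost without control replicate 1 or 3, any E2F1 siRNA replicate or E2F3 siRNA replicate 3 (adjusted p = 0.0538 to 0.135). Without a filter the calls of COL7A1 and COL16A1 were lost as well (adjusted p = 0.0586 and 0.0998). The second type VI chain, COL6A2, stood at 1.67, 0.97 and 1.5 FPKM in control, 1.08, 1.71 and 1.44 after E2F1 siRNA and 1.75, 0.86 and 1.12 with E2F3 siRNA, with overlapping groups and no call.

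Laminins are trimers of an alpha, a beta and a gamma chain. The members hold the gamma chain LAMC1, the beta chains LAMB1 and LAMB2 and the alpha chains LAMA4 and LAMA5. All 4 tested chains fell after E2F1 siRNA, and after E2F3 siRNA LAMA5 and LAMB2 fell while LAMC1 and LAMB1 were not called. Over all genes 17.3% were called lower after E2F1 siRNA and 16.4% after E2F3 siRNA. LAMC1 was the most abundant at 121.48, 117.94 and 126.83 FPKM in control, 89.02, 86.67 and 85.81 after E2F1 siRNA and 141.68, 129.47 and 127.1 with E2F3 siRNA. Its log2 difference was -0.48 (SE 0.05, adjusted p = 4.63e-05) after E2F1 siRNA and 0.12 (SE 0.05, adjusted p = 0.0808) after E2F3 siRNA. LAMB1 followed the same order, with 79.58, 79.4 and 78.18 FPKM in control, 64.4, 64.11 and 61.83 after E2F1 siRNA and 91.7, 82.46 and 84.01 with E2F3 siRNA. The E2F1 siRNA libraries were below and the E2F3 siRNA libraries above control, with log2 differences of -0.31 (SE 0.05, adjusted p = 5.15e-04) and 0.12 (SE 0.05, adjusted p = 0.0669). Without E2F3 siRNA replicate 2 the second of these passed (log2 0.15, adjusted p = 0.0411), and both chains passed after E2F3 siRNA under upper-quartile scaling.

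LAMB2 (ENSG00000172037.13, chr3:49121114-49133118, minus strand) can take the place of LAMB1 in the trimer and moved differently. Its values were 65.65, 61.58 and 60.41 FPKM in control, 47.83, 41.56 and 43.07 after E2F1 siRNA and 31.1, 24.19 and 30.36 with E2F3 siRNA. The 3 groups did not overlap and the E2F3 siRNA libraries were lowest. The fall of 1.11 on the log2 scale after E2F3 siRNA (SE 0.09, adjusted p = 1.51e-05) was larger than that of 0.49 after E2F1 siRNA (SE 0.09, adjusted p = 0.00209), and the direct difference was -0.62 (SE 0.09, adjusted p = 4.56e-04). LAMB2 thus went from 0.773 to 0.825 times the level of LAMB1 in control to 0.293 to 0.361 times after E2F3 siRNA. LAMA5 stood at 75.77, 70.1 and 80.65 FPKM in control, 51.38, 56.95 and 47.51 after E2F1 siRNA and 53.95, 53.77 and 57.16 with E2F3 siRNA. Both knockdowns lay below control and overlapped each other (log2 -0.53, SE 0.07, adjusted p = 2.96e-04, and -0.45, SE 0.07, adjusted p = 9.27e-04). The direct difference of LAMA5 was 0.08 (adjusted p = 0.378), but passed at 0.21 (adjusted p = 0.0149) after correction for GC content and length. The alpha chain LAMA4 was at 0 to 0.41 FPKM. The linker proteins NID1 (0.08 to 0.20 FPKM) and NID2 (0.34 to 1.13 FPKM), which join laminin to collagen, were also too low to test. On the opposite strand RTRAF, at 168 FPKM, shares 1915 of the 6392 exon bases of NID2, and smaller overlaps with genes of either strand, of 0.86 to 2.71% of exon bases, touch LAMA5, LAMB1, LOX and LOXL2.

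Perlecan (HSPG2) and agrin (AGRN) are heparan sulfate proteoglycans of the basement membrane. AGRN stood at 80.65, 79.55 and 83.38 FPKM in control, 51.96, 54.11 and 46.75 after E2F1 siRNA and 46.13, 52.28 and 52.2 with E2F3 siRNA. Both knockdowns were below control and overlapped each other, with log2 differences of -0.66 (SE 0.07, adjusted p = 4.03e-05) and -0.68 (SE 0.07, adjusted p = 3.9e-05). The direct difference was -0.02 (adjusted p = 0.824), but 0.15 with an adjusted p of 0.0262 after correction for GC content and length. HSPG2 had 17.04, 20.51 and 20.39 FPKM in control, 12.56, 15.98 and 11.34 after E2F1 siRNA and 17.15, 18.54 and 16.95 with E2F3 siRNA. It fell after E2F1 siRNA (log2 -0.52, SE 0.12, adjusted p = 0.00597) and overlapped control after E2F3 siRNA (log2 -0.13, adjusted p = 0.416).

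FN1, which encodes fibronectin, the matrix glycoprotein bound by integrins (ENSG00000115414.18, chr2:215360440-215436172, minus strand), had the largest fall after E2F1 siRNA among the tested members on the log2(FPKM + 1) scale. In FPKM itself the low-level SPARC fell by 52.8% and FN1 by 48.4%. It stood at 53.68, 48.82 and 55.39 FPKM in control, 26.54, 28.05 and 26.9 after E2F1 siRNA and 38.1, 38.08 and 36.91 with E2F3 siRNA. The groups did not overlap, and the E2F3 siRNA libraries lay between the other groups. The log2 differences were -0.93 (SE 0.05, adjusted p = 1.49e-06) and -0.47 (SE 0.05, adjusted p = 1.19e-04), and 0.46 (SE 0.05, adjusted p = 9.8e-05) between the knockdowns.

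Fibrillins form the microfibrils of elastic tissue. FBN2 stood at 14.22, 15.48 and 13.62 FPKM in control, 12.66, 13.56 and 11.91 after E2F1 siRNA and 19.6, 17.8 and 17.09 with E2F3 siRNA. It rose after E2F3 siRNA (log2 0.31, SE 0.08, adjusted p = 0.00927) and was not called after E2F1 siRNA (log2 -0.17, adjusted p = 0.101). FBN1, at 1.2 to 3.13 FPKM, was not called against control. FBLN1, a fibulin, had 37.58, 37.22 and 39.38 FPKM in control, 35.09, 35.02 and 31.31 after E2F1 siRNA and 34.64, 35.46 and 34.45 with E2F3 siRNA. Both knockdowns lay below control by a small margin, with a call after E2F1 siRNA (log2 -0.17, SE 0.05, adjusted p = 0.0335) and none after E2F3 siRNA (log2 -0.12, adjusted p = 0.0987). The FBLN1 call was lost without control replicate 1, 2 or 3 or E2F1 siRNA replicate 3 (adjusted p = 0.0525 to 0.112), without a filter (0.0563) and with only the 6 libraries compared (0.0562). Under scaling by the RLE method the difference after E2F3 siRNA passed (log2 -0.16, adjusted p = 0.0314). Between the knockdowns FBLN1 differed by 0.04 (adjusted p = 0.534). LTBP3, which stores latent TGF-beta in the matrix, stood at 16.74, 21.44 and 18.83 FPKM in control, 19.14, 17.38 and 15.27 after E2F1 siRNA and 19.88, 28.05 and 23.31 with E2F3 siRNA. The groups overlapped control, and the difference after E2F3 siRNA was 0.30 (adjusted p = 0.0976), which passed without E2F3 siRNA replicate 1 (log2 0.42, adjusted p = 0.0353) and with correction for GC content and length (log2 0.43, adjusted p = 0.0202). LTBP1 was at 2.76 to 4.21 FPKM with no call.

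TGFBI encodes a secreted adhesion protein induced by TGF-beta (ENSG00000120708.16, chr5:136028895-136063818, plus strand) and had the highest level of all 45 members. It stood at 333.15, 324.47 and 346.2 FPKM in control, 280.75, 262.66 and 282.52 after E2F1 siRNA and 435.62, 421.01 and 443.66 with E2F3 siRNA. The 3 groups were fully apart, in the same order as for COL4A1. After E2F1 siRNA the log2 level of TGFBI fell by 0.28 (SE 0.04, adjusted p = 5.04e-04) and rose by 0.37 after E2F3 siRNA (SE 0.04, adjusted p = 9.38e-05). FSTL1, a secreted glycoprotein related to follistatin, fell after both siRNAs. Its values were 86.48, 90.39 and 91.01 FPKM in control, 68.31, 65.76 and 66.71 after E2F1 siRNA and 65.13, 68.09 and 65.5 with E2F3 siRNA. The log2 differences of FSTL1 were -0.41 (SE 0.04, adjusted p = 3.32e-05) and -0.43 (SE 0.04, adjusted p = 3.11e-05).

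THBS1, or thrombospondin, which can activate latent TGF-beta, stood at 35.65, 39.08 and 42.52 FPKM in control, 25.14, 28.02 and 25.21 after E2F1 siRNA and 39.62, 34.49 and 32.89 with E2F3 siRNA. It was lower in each E2F1 siRNA library (log2 -0.56, SE 0.08, adjusted p = 5.96e-04) and overlapped control after E2F3 siRNA (log2 -0.13, adjusted p = 0.259). With correction for GC content and length the latter passed at -0.23 (adjusted p = 0.0423). TNC, or tenascin, had 5.32, 4.42 and 4.2 FPKM in control, 4.6, 4.51 and 3.96 after E2F1 siRNA and 6.61, 5.65 and 5.31 with E2F3 siRNA. TNC was not called against control (log2 -0.07, and 0.28 with adjusted p = 0.0643 after E2F3 siRNA), although the latter passed without control replicate 1 (log2 0.36, adjusted p = 0.0348) and under upper-quartile scaling (log2 0.29, adjusted p = 0.0461). SPARC, a collagen-binding protein at a low level, stood at 2.3, 3.52 and 2.28 FPKM in control, 1.72, 1.18 and 0.92 after E2F1 siRNA and 1.99, 2.37 and 2.71 with E2F3 siRNA. SPARC fell after E2F1 siRNA (log2 -0.70, SE 0.17, adjusted p = 0.00947).

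**Figure D3:**
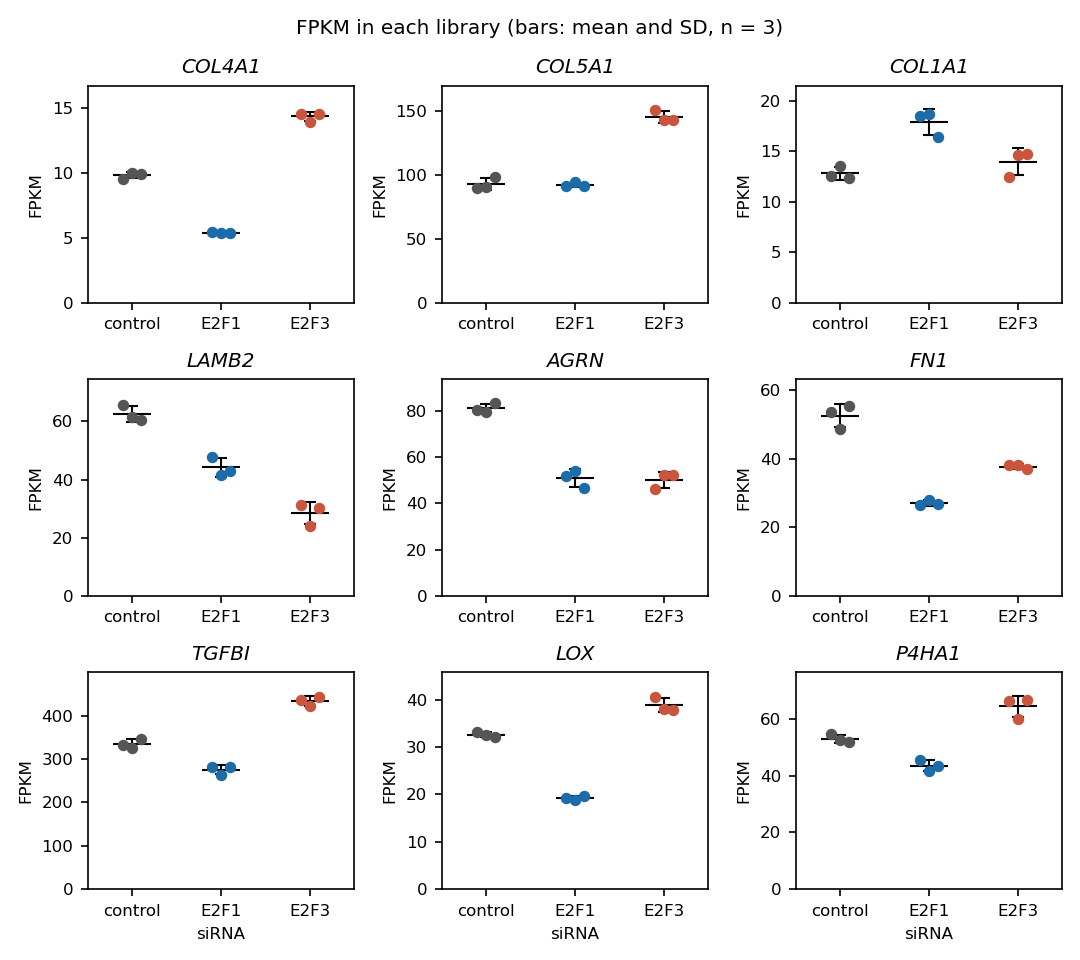
FPKM (y axis, from 0) in each library of 9 matrix genes by siRNA (x axis), with the group mean and SD (n = 3). COL4A1, TGFBI, LOX and P4HA1 were lowest after E2F1 siRNA and highest after E2F3 siRNA, whereas LAMB2 was lowest after E2F3 siRNA, at 24.19 to 31.1 FPKM, and COL1A1 was highest after E2F1 siRNA.

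The 6 enzymes among the members act on collagen before and after secretion, and all 6 fell after E2F1 siRNA. Over all genes 17.3% were called lower after E2F1 siRNA. LOX, which oxidizes lysines so that collagen and elastin can be cross-linked (ENSG00000113083.13, chr5:122063195-122078360, minus strand), stood at 33.07, 32.48 and 32.03 FPKM in control, 19.14, 18.89 and 19.58 after E2F1 siRNA and 40.48, 38.06 and 37.8 with E2F3 siRNA. The groups of LOX were fully apart. Its log2 level fell by 0.73 with E2F1 siRNA (SE 0.05, adjusted p = 2.55e-06) and rose by 0.25 after E2F3 siRNA (SE 0.05, adjusted p = 0.00238). LOXL2, a related oxidase, had 41.84, 37.18 and 40.19 FPKM in control, 24.16, 22.9 and 23.14 after E2F1 siRNA and 32.49, 32.48 and 30.06 with E2F3 siRNA. Unlike LOX it lay below control in both knockdowns, with log2 differences of -0.74 (SE 0.06, adjusted p = 8.47e-06) and -0.32 (SE 0.06, adjusted p = 0.00191). LOX therefore went from 0.79 to 0.874 times LOXL2 in control to 1.17 to 1.26 times after E2F3 siRNA, and stayed within 0.792 to 0.846 times after E2F1 siRNA.

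P4HA1 and P4HA2 are the catalytic subunits of the prolyl hydroxylase that makes the collagen triple helix stable. P4HA1 stood at 54.55, 52.54 and 51.79 FPKM in control, 45.47, 41.52 and 43.41 after E2F1 siRNA and 66.45, 60.1 and 66.58 with E2F3 siRNA. Its groups did not overlap, with log2 differences of -0.28 (SE 0.05, adjusted p = 0.00264) and 0.28 (SE 0.05, adjusted p = 0.00313). P4HA2 had 28.63, 29.01 and 28.52 FPKM in control, 25.01, 22.66 and 25.95 after E2F1 siRNA and 34.66, 30.91 and 35.24 with E2F3 siRNA. The order was the same, with log2 differences of -0.22 (SE 0.07, adjusted p = 0.0239) and 0.22 (SE 0.07, adjusted p = 0.0261). The first P4HA2 call was lost without any control replicate or without E2F1 siRNA replicate 2 (adjusted p = 0.0545 to 0.0817). The second was lost without any control replicate or E2F3 siRNA replicate 1 or 3 (adjusted p = 0.0533 to 0.0887), and under scaling by the RLE method and correction for GC content and length. Both P4HA2 calls were also lost without a filter (adjusted p = 0.0541 and 0.0565).

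PLOD1 and PLOD2 hydroxylate lysines of collagen, PLOD2 chiefly those of the ends that enter cross-links. PLOD1 stood at 101.06, 98.28 and 98.93 FPKM in control, 82.12, 85.07 and 79.72 after E2F1 siRNA and 105.79, 104.55 and 99.64 with E2F3 siRNA. PLOD2 had 58.62, 57.04 and 55.85 FPKM in control, 40.82, 37.04 and 39.74 after E2F1 siRNA and 61.44, 48.91 and 53.99 with E2F3 siRNA. Both lay below control after E2F1 siRNA and overlapped it after E2F3 siRNA, where PLOD1 was at 0.05 (adjusted p = 0.314) and passed at 0.10 (adjusted p = 0.0425) with correction for GC content and length. The fall was 0.27 for PLOD1 (SE 0.04, adjusted p = 5.53e-04) and 0.53 for PLOD2 (SE 0.08, adjusted p = 4.06e-04) on the log2 scale. The ratio of PLOD1 to PLOD2 was 1.72 to 1.77 in control and 2.01 to 2.30 after E2F1 siRNA.

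Cell-surface proteoglycans bind matrix proteins and growth factors through their sugar chains. GPC1, a glypican, stood at 79.62, 81.82 and 84.87 FPKM in control, 61.26, 60.11 and 56.97 after E2F1 siRNA and 48.69, 52.32 and 51.35 with E2F3 siRNA. Its groups were fully apart and both knockdowns were below control (log2 -0.46, SE 0.05, adjusted p = 4.88e-05, and -0.68, SE 0.05, adjusted p = 4.66e-06). The direct difference of GPC1 was -0.22 (adjusted p = 0.00348), but -0.02 (adjusted p = 0.707) after correction for GC content and length. The syndecans gave no call. SDC1 stood at 67.52 to 76.13 FPKM in control, 69.04 to 75.6 after E2F1 siRNA and 67.97 to 76.72 after E2F3 siRNA, and SDC4 at 52.34 to 56.68, 57.86 to 62.23 and 55.94 to 58.45 FPKM in the same order. BGN, a small proteoglycan of connective tissue, was at 0.07 to 0.44 FPKM and was not tested.

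**Figure D4:**
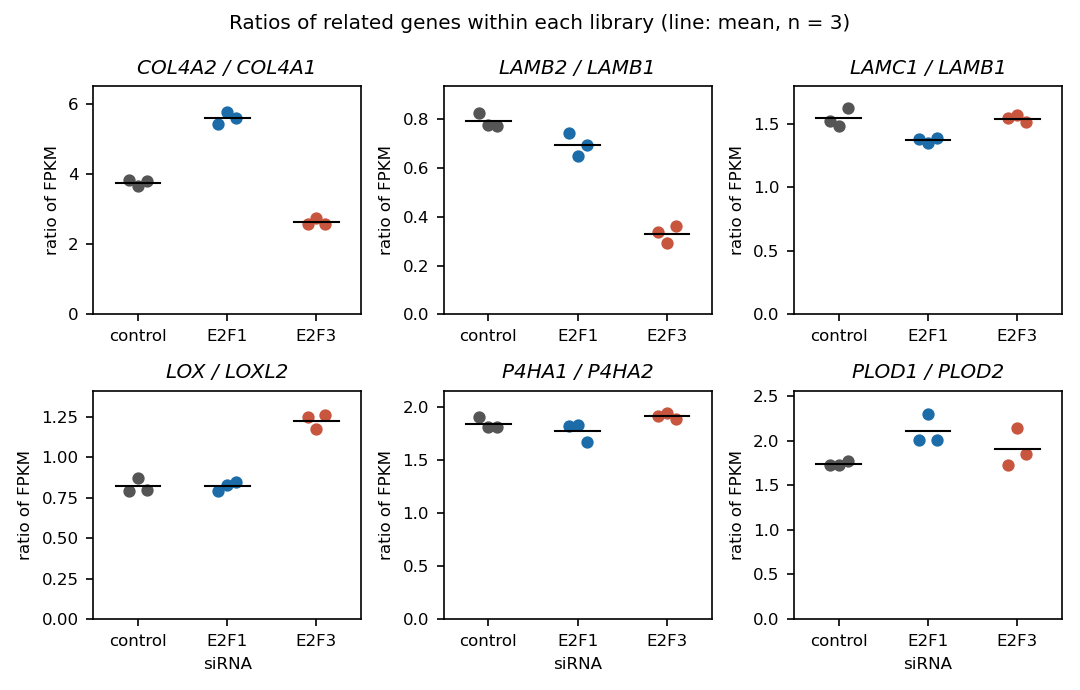
Ratio of the FPKM of related genes within each library (y axis, from 0) by siRNA (x axis), with a line at the mean (n = 3). The ratio of COL4A2 to COL4A1 rose from 3.76 in control to 5.60 after E2F1 siRNA and was 2.63 after E2F3 siRNA, and that of LAMB2 to LAMB1 was 0.331 after E2F3 siRNA.

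Such ratios are taken within a library and so do not change with how libraries are scaled to each other. In all, 11 ratios were compared between 3 pairs of groups, giving 33 comparisons. The ratios were COL4A2/COL4A1, COL4A5/COL4A6, COL6A1/COL6A2, LAMC1/LAMB1, LAMB2/LAMB1, LAMA5/LAMC1, P4HA1/P4HA2, PLOD1/PLOD2, COL1A1/COL1A2, COL5A1/COL5A2 and LOX/LOXL2. In 18 of these comparisons the groups did not overlap, and the share among other gene pairs was not taken. They include COL5A1/COL5A2 against control after each siRNA, where COL5A2 was only at 0.14 to 0.49 FPKM. With 3 libraries against 3 an exact two-sided permutation test cannot go below 0.1, which is what those 18 gave (0.183 after adjustment over the 33). Summed by role, the laminin and basement membrane proteoglycan genes went from 441 ± 10.2 FPKM in control to 312 ± 12.6 after E2F1 siRNA and 371 ± 10.8 with E2F3 siRNA (SD, n = 3). The sum of the hydroxylases and cross-linking enzymes was 311 ± 6.28, 232 ± 4.35 and 327 ± 13.4 FPKM in the same order. The fibrillar collagens summed to 106 ± 4.46, 111 ± 2.62 and 161 ± 3.54 FPKM, most of which was COL5A1.

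Some direct differences between the knockdowns were lost when single libraries were left out, and each of these also without a filter (adjusted p = 0.0566 to 0.139). All were higher after E2F3 siRNA: COL7A1 (log2 0.19, adjusted p = 0.0265), HSPG2 (0.39, 0.0206), FBN1 (0.46, 0.0471), LTBP3 (0.43, 0.0223), SPARC (0.57, 0.0214) and TNC (0.35, 0.022). COL7A1 was lost without replicate 1 or 3 of either siRNA (adjusted p = 0.0619 to 0.09), and HSPG2 without E2F1 siRNA replicate 1 or 3 or E2F3 siRNA replicate 2 (0.0638 to 0.0715). LTBP3 and SPARC were lost without replicate 2 or 3 of either siRNA (adjusted p up to 0.0780 and up to 0.0752). TNC was lost without E2F1 siRNA replicate 3 or E2F3 siRNA replicate 1 (0.0753 and 0.0790). FBN1 was lost without any control replicate, E2F1 siRNA replicate 2 or 3 or E2F3 siRNA replicate 1 or 2 (adjusted p = 0.0589 to 0.159). It was also lost with a pseudocount of 0.1 (0.0503) and with only the 6 libraries compared (0.0794). Correction for GC content and length ended the FBN1 call too (0.115, and 0.0817 with a replicate block). With that block and correction SPARC was lost as well (0.0568).

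Other genes of collagen folding, transport and cleavage held calls in both directions. The share called lower was above that of all genes after E2F1 siRNA. After E2F3 siRNA it was above by less, resting on 7 genes, and the difference was not tested. Of 35 such genes outside the members, 28 were tested. After E2F1 siRNA 12 fell and 3 rose, and after E2F3 siRNA 7 fell and 5 rose, with medians of -0.06 and 0.00 on the log2 scale. These are 42.9% lower and 10.7% higher after E2F1 siRNA (17.3% and 20.5% over all genes), and 25% and 17.9% after E2F3 siRNA (16.4% and 21.1% over all genes). COLGALT1, which adds galactose to hydroxylysine, stood at 82.96, 70.91 and 77.38 FPKM in control, 45.96, 44.99 and 42.9 after E2F1 siRNA and 78.88, 77.88 and 76.19 with E2F3 siRNA, with log2 differences of -0.77 (SE 0.06, adjusted p = 6.64e-06) and 0.01 (adjusted p = 0.874). FKBP14, a prolyl isomerase of the endoplasmic reticulum, was at 20.99 to 22.04 FPKM in control, 12.24 to 13.14 after E2F1 siRNA and 25.56 to 32.71 after E2F3 siRNA. It fell by 0.73 and rose by 0.42 (adjusted p = 8.41e-05 and 0.00293). P3H4, which assists lysine hydroxylation, fell after both siRNAs (log2 -0.86 and -0.66, adjusted p = 0.00124 and 0.00589).

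Proteins of the coat that carries procollagen out of the endoplasmic reticulum held the largest difference of this list. SEC23A, an inner coat protein, stood at 67.04, 63.75 and 63.54 FPKM in control, 46.64, 43.22 and 43.26 after E2F1 siRNA and 14.11, 12.75 and 12.91 with E2F3 siRNA. All E2F3 siRNA libraries were far below the others. The fall was 2.21 on the log2 scale after E2F3 siRNA (SE 0.05, adjusted p = 7.44e-09) and 0.54 after E2F1 siRNA (SE 0.05, adjusted p = 4.96e-05). SEC13 of the outer coat rose instead, from 63.1 to 64.58 FPKM in control to 93.86 to 101.12 after E2F1 siRNA (log2 0.60, adjusted p = 9.82e-06) and 71.79 to 79.07 after E2F3 siRNA (log2 0.22, adjusted p = 0.00599). KLHL12, an adaptor of the ubiquitin ligase that enlarges such carriers, rose by 0.19 and 0.62 (adjusted p = 0.0235 and 2.44e-05), the former not without control replicate 1 or 3 or E2F1 siRNA replicate 2 or 3 (adjusted p = 0.0504 to 0.0825). SAR1B, a GTPase that starts the coat, rose by 0.26 after E2F1 siRNA (adjusted p = 0.0475) and was not called after E2F3 siRNA (0.05, adjusted p = 0.67). Its paralogue SAR1A, at 77.0 FPKM in control against 38.1 for SAR1B, fell by 0.36 and 0.52 (adjusted p = 9.00e-05 and 1.04e-05). The rise of SAR1B was lost without any single library other than E2F1 siRNA replicate 1 (adjusted p = 0.0529 to 0.151) and under both other scalings. It was also lost without a filter (adjusted p = 0.131), with correction for GC content and length (0.0611) and with only the 6 libraries compared (0.0711).

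**Figure D5:**
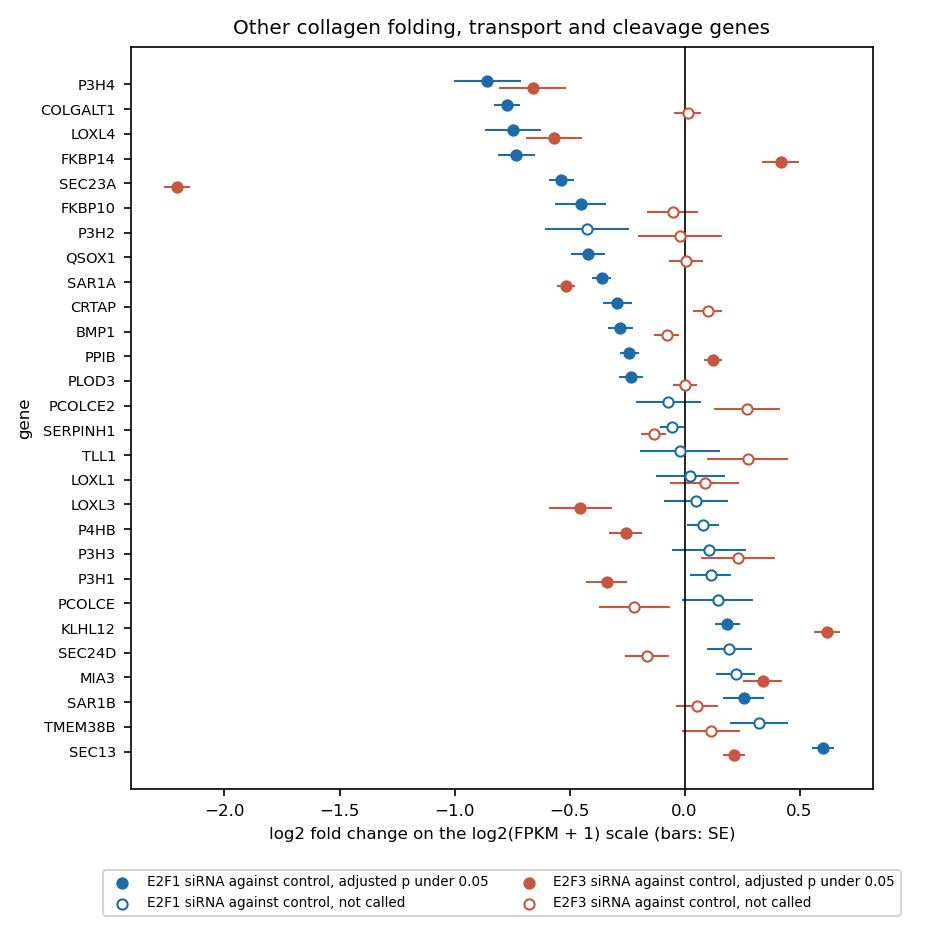
The log2 difference from control (x axis, log2(FPKM + 1) scale, bars are SE) of the 28 tested genes of collagen folding, transport and cleavage outside the members (y axis), after E2F1 siRNA (blue) and E2F3 siRNA (red), filled where the limma adjusted p was under 0.05. SEC23A after E2F3 siRNA, at -2.21, lies apart from all other points, which fall between -0.86 and 0.62.

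Among 57 other matrix glycoproteins and proteoglycans, 29 were tested. After E2F1 siRNA 12 of them fell and 0 rose (median log2 -0.31), and after E2F3 siRNA 4 fell and 4 rose (median -0.02). The 41.4% that fell after E2F1 siRNA compare with 17.3% over all genes, while the 13.8% called in each direction after E2F3 siRNA lie below the 16.4% lower and 21.1% higher over all genes. LAMB3, the beta chain of the laminin that holds keratinocytes to the basement membrane, stood at 128.53 to 132.5 FPKM in control, 71.08 to 73.49 after E2F1 siRNA and 92.71 to 96.32 after E2F3 siRNA. It fell in both (log2 -0.85 and -0.46, adjusted p = 1.98e-07 and 9.22e-06). FBLN5, a fibulin of elastic fibers, fell after E2F1 siRNA (log2 -0.92, adjusted p = 2.18e-04), and CSPG4 fell by 0.27 and 0.71 (adjusted p = 0.0259 and 1.20e-04). The smaller fall of CSPG4 was lost without control replicate 1 or 3 or E2F1 siRNA replicate 1 or 3 (adjusted p = 0.0673 to 0.0922), and without a filter (0.0546). IGFBP3, which binds insulin-like growth factors, went from 7.39 to 9.09 FPKM in control to 14.86 to 19.67 after E2F3 siRNA (log2 0.96, adjusted p = 1.29e-04), and DAG1, or dystroglycan, a laminin receptor, rose by 0.18 (adjusted p = 0.0117). Of 26 other collagen chains 5 were tested. COL9A3 rose after both siRNAs (log2 0.44 and 0.33, adjusted p = 5.69e-05 and 4.29e-04), and COL17A1, the collagen of hemidesmosomes, rose after E2F3 siRNA (log2 0.48, adjusted p = 3.20e-04).

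Enzymes that build the sugar chains of proteoglycans were tested in 33 of 38 cases. After E2F1 siRNA 12 fell and 5 rose (36.4% and 15.2%, against 17.3% and 20.5% over all genes). After E2F3 siRNA 4 fell and 6 rose (12.1% and 18.2%), which is below the 16.4% and 21.1% over all genes. CHST14, which sulfates dermatan, rose most, from 3.86, 3.37 and 4.13 FPKM in control to 9.91, 9.76 and 9.71 after E2F1 siRNA and 9.26, 11.21 and 10.14 with E2F3 siRNA. Both knockdowns were well above control (log2 1.18 and 1.23, adjusted p = 6.64e-06 and 5.70e-06). B3GALT6, an enzyme of the linker that joins the chain to the protein, rose by 0.47 and 0.41 (adjusted p = 9.67e-04 and 0.00236), while B4GALT7, which acts a step earlier, fell by 0.37 and 0.45 (adjusted p = 0.0171 and 0.00672). The former fall of B4GALT7 was lost without control replicate 3 or E2F1 siRNA replicate 1 or 3 (adjusted p = 0.0547 to 0.0653), and without a filter (0.0513). XYLT2, which starts the linker, fell by 0.21 after E2F3 siRNA (adjusted p = 0.0399), a call lost without any control replicate, E2F1 siRNA replicate 1 or 2 or E2F3 siRNA replicate 1 or 3 (adjusted p = 0.0504 to 0.132). That call was also lost without a filter (adjusted p = 0.0724), with correction for GC content and length (0.134) and with only the 6 libraries compared (0.0560). HS2ST1, a heparan sulfotransferase, rose by 0.41 and 0.60 (adjusted p = 3.85e-04 and 3.70e-05), and HS6ST2 and CHST15, other sulfotransferases, fell after E2F1 siRNA by 0.58 and 0.65 (adjusted p = 3.23e-05 and 6.96e-04).

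RefSeq promoter windows, 250 bases before to 50 bases from the start site, were at hand for 38 of the 45 members. None held the letters TTTGGCGC, TTTCGCGC, TTTCCCGC or TTTGCCGC on either strand, known from E2F sites. Over all 27305 windows the share was 3.33% (908). At such a share few or none are expected among 38 windows, so the members are not set apart. Members' windows had a median GC content of 71.8% (43.7 to 86.7%) against 58.3% over all windows. Such a search says only that these letters are not in these windows.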

How the data were processed

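Expression in HK1 cells was read from 9 RNA libraries, 3 per siRNA. The files deposited by the authors hold FPKM per gene and library, per the file headers, to 2 decimals and without counts. Build GRCh38 and the tools HISAT2, TopHat, HTSeq, DESeq and Trimmomatic are named per the submitters' processing notes, with neither role nor version. Each file held 59107 entries with a value, and 58381 had an Ensembl identifier, of which 56933 matched GENCODE 29 exactly, 1328 after the version was dropped and 120 not at all. Whether counting used strand is not stated.

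Values were taken as log2(FPKM + 1), a pseudocount of 1, and fitted with limma 3.58.1 (R 4.3.3, trend, group means only, all 9 libraries, two-sided tests, Benjamini-Hochberg adjustment over 13777 genes). Relative depth was read from the steps of FPKM values in short single-exon genes. Ratios, sums and exact permutation tests were computed in Python 3.11.15 (scipy 1.17.1). Members, the lists of other matrix genes and markers, and the tests were chosen with earlier results of these data known. Members called in any comparison with a group mean of at least 5 FPKM, and paralogue pairs, are given by library. From each further list the 2 largest called rises and falls per knockdown with a group mean of at least 5 FPKM are named. SPARC, SAR1A, the single markers, COL3A1 with its values by library and COL5A2 with its ranges by group were added after their values were seen. So were the statements on how LAMA4, BGN and NID1 lay against control. The fit was tested on simulated data with known changes. Alternatives were other scalings (RLE, upper quartile), a pseudocount of 0.1, no filter, a mean of at least 5 FPKM, a replicate block, correction for GC content and length (loess, span 0.3), robust fitting, the 6 compared libraries alone and leaving out each library.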

Additional observations from a re-analysis of the deposited data

How the results depend on the processing

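After E2F1 siRNA, leaving out each library in turn gave 21 to 26 members lower and 1 higher in every case. After E2F3 siRNA it gave 6 to 9 higher and 7 lower, and between the knockdowns 17 to 22 higher and 3 lower. The other settings gave 22 to 26 lower and 1 to 2 higher after E2F1 siRNA, the 2 being without a filter, where 45 members were tested. They gave 7 to 11 higher and 7 to 8 lower after E2F3 siRNA, the 11 under upper-quartile scaling, and 18 to 26 higher and 2 to 4 lower between the knockdowns. AGRN between the knockdowns was at -0.02 and reversed to 0.15 with correction for GC content and length, with or without a replicate block, and the cause was not tested. With the replicate block alone, 25 members were lower and 1 higher after E2F1 siRNA, 9 higher and 7 lower after E2F3 siRNA, and 23 higher and 3 lower between the knockdowns. The block moved no count by over 1.5 times, but ended the call of FBLN1 after E2F1 siRNA (adjusted p = 0.0579) and gave one for TNC after E2F3 siRNA (adjusted p = 0.0301, and 0.0363 with correction for GC content and length). Same-numbered libraries of different groups had correlations of -0.11 to 0.11, with 1 of 9 pairs over 0.1, and not every library correlated best with its own number, so the numbers were not taken as pairs. Of the members' calls, 22 of 27 after E2F1 siRNA, 13 of 15 after E2F3 siRNA and 19 of 26 between the knockdowns were kept under each of the 19 alternatives in which the gene was tested. As the files hold no counts, differences of genes near 1 FPKM, such as COL6A2 and FBN1, are limited by a depth that is unknown. Scaling of libraries cannot move the ratios within a library. They were not recomputed with correction for GC content and length, which can.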
